A study of Culter alburnus with 6 samples.

Results

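Angiopoietins, angiopoietin-like proteins and vascular endothelial growth factors (VEGFs) were followed in TCCF2022, a cell line established from caudal fin of Topmouth culter (Culter alburnus) and labelled as fibroblasts. A row of the deposited table was taken as a member when its closest protein in the NR database, or the gene name of its Swiss-Prot match, named an angiopoietin, an angiopoietin-related protein, a VEGF, a VEGF receptor or a Tie receptor. This gave 27 of the 61608 rows, 23 by the NR name and 4 by the Swiss-Prot gene name alone. Each row is an assembled gene, so rows can share a name, and such rows are numbered here (angptl1 row 1, 2 and 3). The 27 rows carried 18 names, all borrowed from proteins of other species.

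The control group (CK, 3 libraries) was cultured without Forskolin and the treated group (F, 3 libraries) with 5 μM Forskolin, an activator of adenylate cyclase, the enzyme that makes cAMP. All 6 libraries came from wild-type TCCF2022 cells labelled as fibroblasts and collected on day 7, in DMEM/F12 with 10% fetal bovine serum and 5 ng/mL bFGF at 27 °C. Parts of the study's culture methods give other concentrations of bFGF and Forskolin, while its description of these libraries gives the Forskolin concentration of the labels. The 3 libraries of a group are stated to be biological replicates of this single line, and how the cultures were separated is not given in the sources used here.

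Angiopoietins are secreted ligands of the Tie2 receptor of blood vessels. Angiopoietin-1 activates the receptor, and angiopoietin-2 can oppose it. Angiopoietin-like proteins share their coiled-coil and fibrinogen-like domains but do not bind Tie2, and members of the group act on lipoprotein lipase, blood stem cells, matrix and vessels. VEGF-A drives the growth of blood vessels through receptor tyrosine kinases, and VEGF-C and VEGF-D act mainly on lymphatic vessels through VEGF receptor 3, which flt4 encodes.

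Levels are given as TPM, a relative transcript abundance with a fixed total per library, which is corrected for transcript length and can be compared between genes. A log2 change is the limma estimate of F minus CK on the log2(TPM + 1) scale, which understates the change of low rows, and a row is called higher or lower where the adjusted p, taken over all 37532 rows tested, was under 0.05. Of these, 6.15% were higher and 6.07% lower, 12.2% in all. An exact permutation test of a single row cannot go below p = 0.1 with 3 libraries against 3, and each row whose groups did not overlap reached that value. The libraries held 34560 to 37031 rows at 1 TPM or more, and since TPM carries no read number, no counting interval can be given.

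Of the 27 rows, 22 reached 1 TPM in 3 or more libraries and were tested. Among these 22, Forskolin cells had 6 rows higher, 7 lower and 9 neither, and the groups did not overlap in 15 rows, against 32.1% of all rows tested. The filter favours such differences, since 3 of the tested rows reached 1 TPM in every CK library and in no F library, and 5 in every F library and in no CK library. The median log2 change of the 22 rows was 0.03, and that of all rows tested was −0.01. With a log2 change beyond 1 also asked for, 5 rows were higher and 6 lower, against 3.27% and 3.9% of all rows tested. The calls of 8 of the 13 rows held in each of the 6 fits with 1 library left out. These were angpt2b, angptl1 rows 1 and 2, angptl1b, angptl2b, angptl7, vegfaa row 2 and kdrl.

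**Figure D1:**
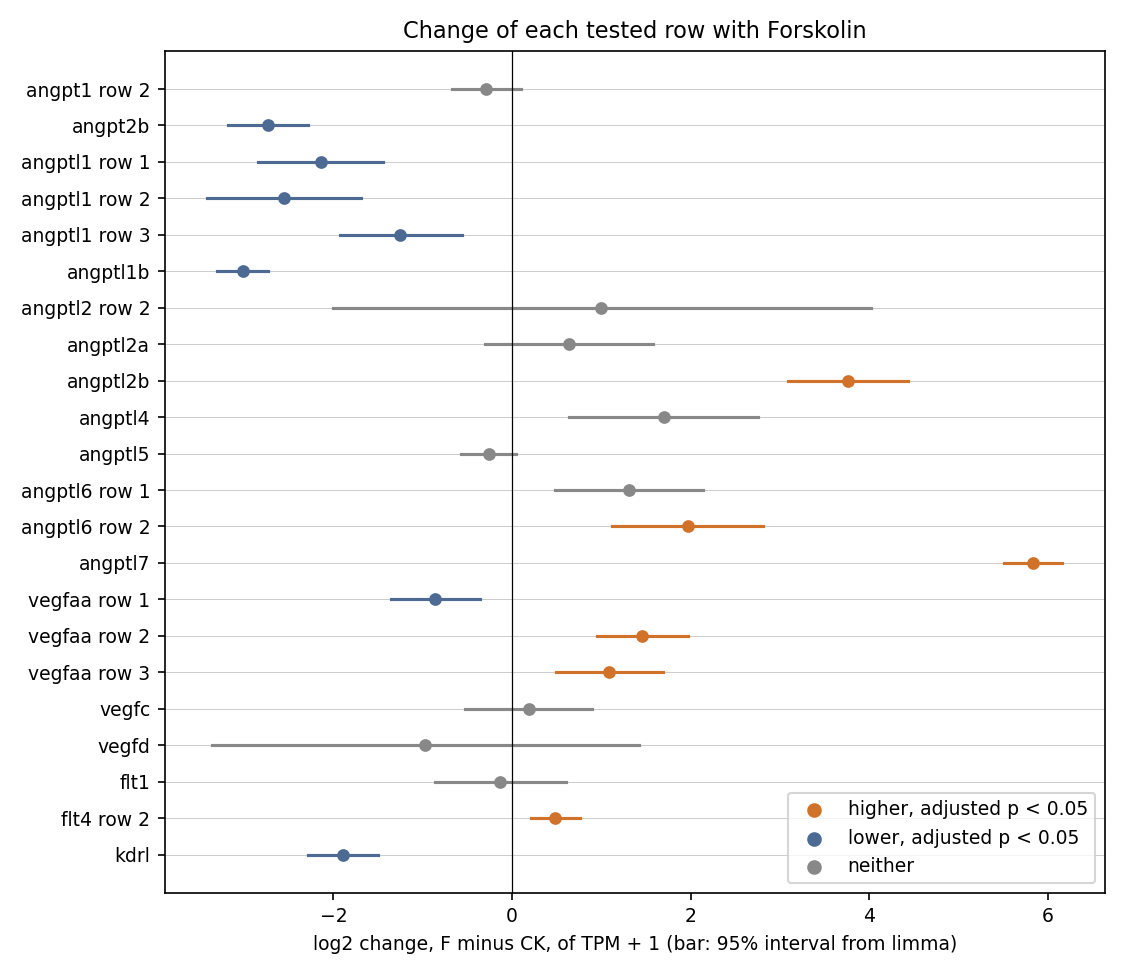
Log2 change (F minus CK, of TPM + 1) of each of the 22 tested rows, with the 95% interval as a bar. Angptl7 (5.84) and angptl2b (3.76) lie farthest to the right, and angptl1b (−3.01) and angpt2b (−2.73) farthest to the left.

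Among the ligands of Tie2, angpt2b fell and angpt1 did not pass the test. Angpt2b (TRINITY_DN17300_c0_g1), which encodes angiopoietin-2b, had 23.2, 23.0 and 25.3 TPM in CK, and in F 3.67, 2.73 and 1.98 TPM. Every F library lay far below every CK library, and the ratio of the group means was 8.54 (23.8 ± 1.27 in CK and 2.79 ± 0.847 in F, SD, n = 3). By limma the log2 change was −2.73 (standard error 0.18, adjusted p = 7.33e-04). In terms of rank, angpt2b lay above 86.4% of tested rows by its CK mean and above 47.3% by its F mean. In bulk libraries such as these, fewer cells of a type and less RNA per cell cannot be told apart.

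Angpt1 row 2 (TRINITY_DN5093_c0_g1), for the activating ligand angiopoietin-1, had 10.5, 13.3 and 10.7 TPM in CK, and in F 11.2, 8.31 and 8.38 TPM. The groups overlapped, and the log2 change of −0.29 had a 95% interval from −0.67 to 0.10 (adjusted p = 0.338). In CK the angpt2b mean was above the angpt1 mean, with no overlap between the libraries of the rows, and in F it was below it, again with no overlap. A further angpt1 row was listed at 0 TPM in all 6 libraries and was not tested.

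The Tie receptors themselves were seen in single libraries. Both rows with the Swiss-Prot gene name tie2 were listed at 0 in 5 of the 6 libraries. Row 1 had 39.6 TPM in CK replicate 3, and row 2 had 5.60 TPM in F replicate 1. KEGG names row 1 TIE1 and gives row 2 both MEGF6 and TIE2, so the names do not settle which protein each row encodes. Neither was tested, and their deposited domain annotation holds EGF-like repeats but no kinase domain, so that their identity as Tie receptors rests on a partial match.

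The angiopoietin-like rows went both ways, with angptl1 lower and angptl2b and angptl7 higher. Of 13 rows, 3 were higher, 4 lower, 5 neither and 1 was not tested, against 6.15% higher and 6.07% lower of all rows tested. All 4 rows named angptl1 or angptl1b fell. Among them, angptl1 rows 1 and 3 rest on an NR name alone, with no Swiss-Prot match, KEGG name or domain. In zebrafish, angptl1 and angptl2 act in the formation of blood stem cells, and mammalian ANGPTL1 is known as an inhibitor of vessel growth.

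Angptl1b (TRINITY_DN2151_c0_g3) was the most abundant of the angiopoietin-like rows in CK, with 34.5, 34.3 and 32.4 TPM, and had 3.08, 3.88 and 2.99 TPM in F. The libraries of each group lay close together, and the groups were 10.2-fold apart by their means (limma log2 change −3.01, standard error 0.12, adjusted p = 1.38e-04). Angptl1 row 2 had 3.43, 7.71 and 8.69 TPM in CK, and in F 0.30, 0.31 and 0.10 TPM (limma log2 change −2.55, adjusted p = 0.00829). Angptl1 row 1 had 3.14, 5.26 and 3.12 TPM in CK, 0.24 TPM in F replicate 2, and was listed at 0 in the other F libraries (limma log2 change −2.14, adjusted p = 0.00762). The F libraries of these rows were thus all under 1 TPM. Angptl1 row 3 was the lowest of them, at 1.23 to 2.05 TPM in CK and at most 0.19 TPM in F. Its log2 change of −1.25 passed narrowly (adjusted p = 0.0379) and did not pass with any 1 library left out (adjusted p = 0.0664 to 0.129). With TPM summed over the 3 unlettered angptl1 rows, which could be pieces of the same gene, the log2 change was −3.22 (adjusted p = 0.00265).

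Angptl7 (TRINITY_DN7098_c0_g1) had the largest change of the 22 rows. The gene encodes a secreted protein that is best known in mammals from the cornea and the outflow tissue of the eye. It had 0.24, 0.25 and 0.06 TPM in CK, and in F 60.5, 68.1 and 71.5 TPM. No CK library reached 1 TPM, and in F the row lay above 94.9% of tested rows. By limma the log2 change was 5.84 (standard error 0.13, 95% interval 5.51 to 6.16, adjusted p = 2.22e-05). With 0.1 in place of 1 added to TPM it was 7.96.

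Angptl2b (TRINITY_DN7437_c0_g1) rose from 0.31, 0.24 and 0.15 TPM in CK to 17.8, 20.4 and 10.5 TPM in F. The lowest F library, replicate 3, still lay far above the highest CK library (limma log2 change 3.76, standard error 0.28, adjusted p = 0.00101). In the deposited GO terms this row carries angiogenesis, positive regulation of Notch signaling and differentiation of blood progenitor cells. The other angptl2 rows did not share this clear step. Angptl2a had 0.24, 1.26 and 0.60 TPM in CK, and in F 1.33, 2.8 and 0.92 TPM (limma log2 change 0.64, adjusted p = 0.385). Angptl2 row 2 was listed at 0 in CK replicates 1 and 2 and in F replicate 1, and had 8.94 TPM in CK replicate 3 and 10.1 and 6.23 TPM in the other F libraries (adjusted p = 0.685). Row 1, with 2.49 and 3.06 TPM in F replicates 2 and 3 and 0 elsewhere, was not tested. Angptl2a and both of these rows belong to the same cluster of assembled sequences, so reads may have been split among them.

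Angptl4 encodes an inhibitor of lipoprotein lipase, and its row carries the PPAR signaling pathway in the deposited annotation. It had 2.08, 1.33 and 1.49 TPM in CK, and in F 9.57, 12.3 and 3.32 TPM. All F libraries lay above all CK libraries, but F replicate 3 was much nearer to CK than the other F libraries were. The log2 change of 1.70 (95% interval 0.64 to 2.75) had an adjusted p of 0.0564 and did not pass. It passed without F replicate 3 (limma log2 change 2.18, adjusted p = 0.00962).

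Both angptl6 rows, of a member linked in mice to energy use, were under 1 TPM in every CK library and above it in every F library. Row 2, which NR names angiopoietin-related protein 2 and KEGG ANGPTL6, had 4.83, 2.03 and 3.83 TPM in F and a log2 change of 1.97 (adjusted p = 0.0178). This call was lost on leaving out either CK replicate 1 (adjusted p = 0.0624), CK replicate 3 (0.063), F replicate 1 (0.0651) or F replicate 3 (0.0572). Row 1, which NR names angiopoietin-related protein 6 and KEGG ANGPTL6, has ANGPTL2 as its Swiss-Prot gene name. It had 1.13, 2.36 and 3.17 TPM in F and did not pass (limma log2 change 1.31, adjusted p = 0.059). With both rows summed, which come from the same cluster of assembled sequences, the log2 change was 2.29 (adjusted p = 0.00747).

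Angptl5 did not pass, with 16.1, 13.5 and 14.3 TPM in CK and 14.0, 11.0 and 11.3 TPM in F. The groups overlapped, and the interval of its log2 change of −0.26 ran from −0.57 to 0.05 (adjusted p = 0.276).

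The make-up of the angiopoietin-like transcripts therefore differed between the groups. Summed over all 13 rows, the CK libraries held 61.6, 66.7 and 71.2 TPM and the F libraries 112.5, 136.2 and 116.9 TPM. Rows of angptl1 made up 68.7%, 73.8% and 64.0% of that sum in CK and 3.0%, 3.4% and 2.6% in F. Angptl7 made up at most 0.4% in CK and 53.7%, 50.0% and 61.2% in F. These shares describe the values above and are not a separate test.

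**Figure D2:**
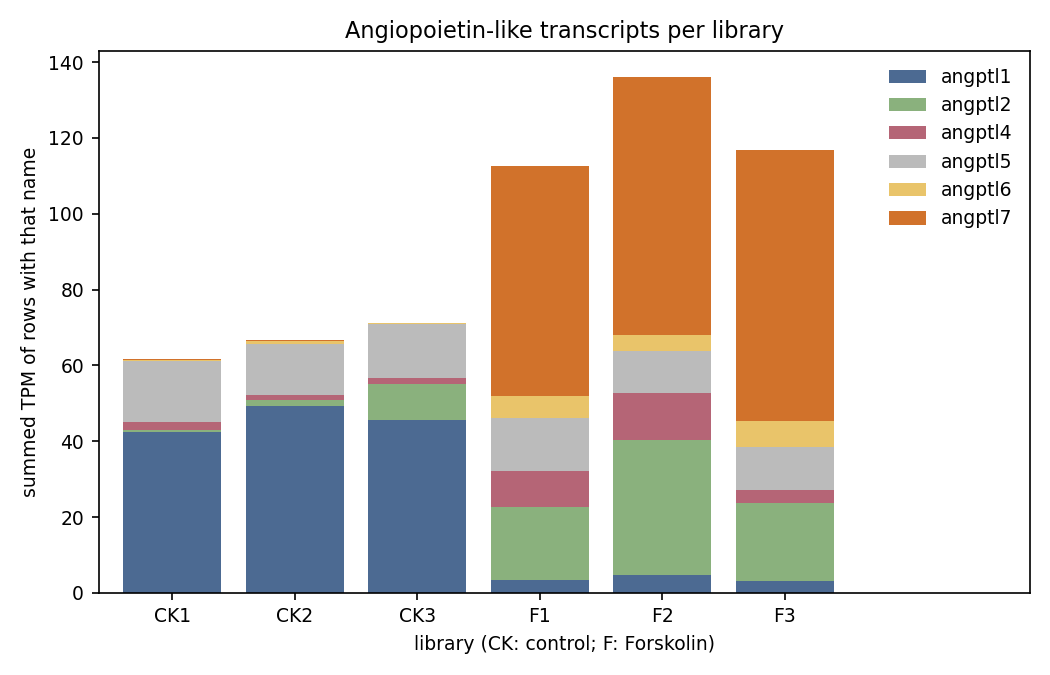
Summed TPM of the angiopoietin-like rows in each library, stacked by gene, with the a and b paralogs of a gene added together. Angptl1 fills 64.0% to 73.8% of the CK bars, and angptl7 fills 50.0% to 61.2% of the F bars.

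Of the 5 VEGF ligand rows, the 3 named vegfaa passed the test, in opposite directions, and those of vegfc and vegfd did not. Over all rows tested, 6.15% were higher and 6.07% lower. Vegfaa encodes VEGF-A, the main growth signal of blood vessels. Row 1 (TRINITY_DN431_c0_g1) had 29.3, 30.6 and 30.8 TPM in CK, and in F 19.6, 19.1 and 11.4 TPM. Row 2 (TRINITY_DN486_c0_g1) had 13.0, 10.9 and 12.1 TPM in CK, and in F 36.2, 45.3 and 25.2 TPM. In each of these rows the groups did not overlap, and F replicate 3 was the lowest F library. In row 2 the log2 change was 1.46 (standard error 0.21, adjusted p = 0.00924), and the call held with each library left out (adjusted p = 0.0051 to 0.0445).

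The fall of vegfaa row 1 was less firm. Its log2 change of −0.86 had an adjusted p of 0.0448, and of the 6 fits with 1 library left out it passed in that without F replicate 3 (adjusted p = 0.0127) and in no other (adjusted p = 0.0656 to 0.131). Row 3, a low row with an NR name alone, had 0.89, 0.56 and 0.45 TPM in CK, and in F 2.60, 2.53 and 2.25 TPM. Its call (limma log2 change 1.09, adjusted p = 0.038) was lost with any library left out (adjusted p = 0.0735 to 0.118).

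Summed over the 3 vegfaa rows, the CK libraries held 43.1, 42.1 and 43.3 TPM and the F libraries 58.4, 66.9 and 38.8 TPM. F replicate 3 lay below every CK library and the other F libraries above, so the groups overlapped (limma log2 change 0.31, adjusted p = 0.406). Row 1 made up 67.9%, 72.8% and 71.1% of the sum in CK and 33.6%, 28.5% and 29.3% in F, with no overlap. The rows differ in their deposited domains. Row 2 carries the heparin-binding VEGF_C domain beside the growth factor domain, row 1 the growth factor domain alone, and row 3 neither. Whether the rows are isoforms, paralogs or pieces of a gene cannot be told apart from names and domains.

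Vegfc and vegfd encode the lymphatic ligands. Vegfc had 10.2, 8.10 and 5.50 TPM in CK, and in F 10.5, 11.3 and 5.92 TPM, nearly the same span (limma log2 change 0.19, 95% interval −0.53 to 0.90, adjusted p = 0.758). The vegfd row has no Swiss-Prot match and no annotated domain. Vegfd varied more, with 10.9, 10.2 and 4.21 TPM in CK, 4.82 and 14.7 TPM in F replicates 2 and 3, and 0 listed in F replicate 1. Its interval, from −3.36 to 1.42, leaves room for large changes in either direction (limma log2 change −0.97, adjusted p = 0.618). The signs of the vegfc and vegfd changes turned without CK replicate 3 (−0.03) and without F replicate 1 (0.11), respectively.

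Of the VEGF receptors, kdrl fell, flt4 passed the test narrowly as higher, and flt1 did not pass. Kdrl (TRINITY_DN7054_c0_g1), in zebrafish the receptor of VEGF-A on endothelial cells, although KEGG names the row FLT1, had 9.35, 8.59 and 8.55 TPM in CK, and in F 1.43, 1.68 and 1.86 TPM. Both groups were tight, and their means were 5.33-fold apart (limma log2 change −1.89, standard error 0.16, adjusted p = 0.00168). The row carries immunoglobulin, transmembrane and kinase domains.

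Flt4 row 2 (TRINITY_DN34181_c0_g1), for the receptor of VEGF-C and VEGF-D, had 8.35, 7.36 and 7.06 TPM in CK, and in F 10.6, 10.8 and 11.7 TPM. The groups did not overlap, but the difference was small (limma log2 change 0.48, 95% interval 0.21 to 0.76, adjusted p = 0.0445), and no fit with 1 library left out called it (adjusted p = 0.0784 to 0.151). This row carries immunoglobulin domains and no kinase domain. Another flt4 row had 5.22 TPM in F replicate 2, was listed at 0 elsewhere and was not tested. The flt1 row, for the VEGF-A receptor that also acts as a trap for the ligand, rests on an NR name alone, with no Swiss-Prot match, KEGG name or domain. It had 12.5, 30.2 and 23.5 TPM in CK, and in F 19.2, 17 and 20.5 TPM. The F libraries lay within the span of the CK libraries (limma log2 change −0.13, adjusted p = 0.832), and the sign turned without CK replicate 2 (0.13).

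**Figure D3:**
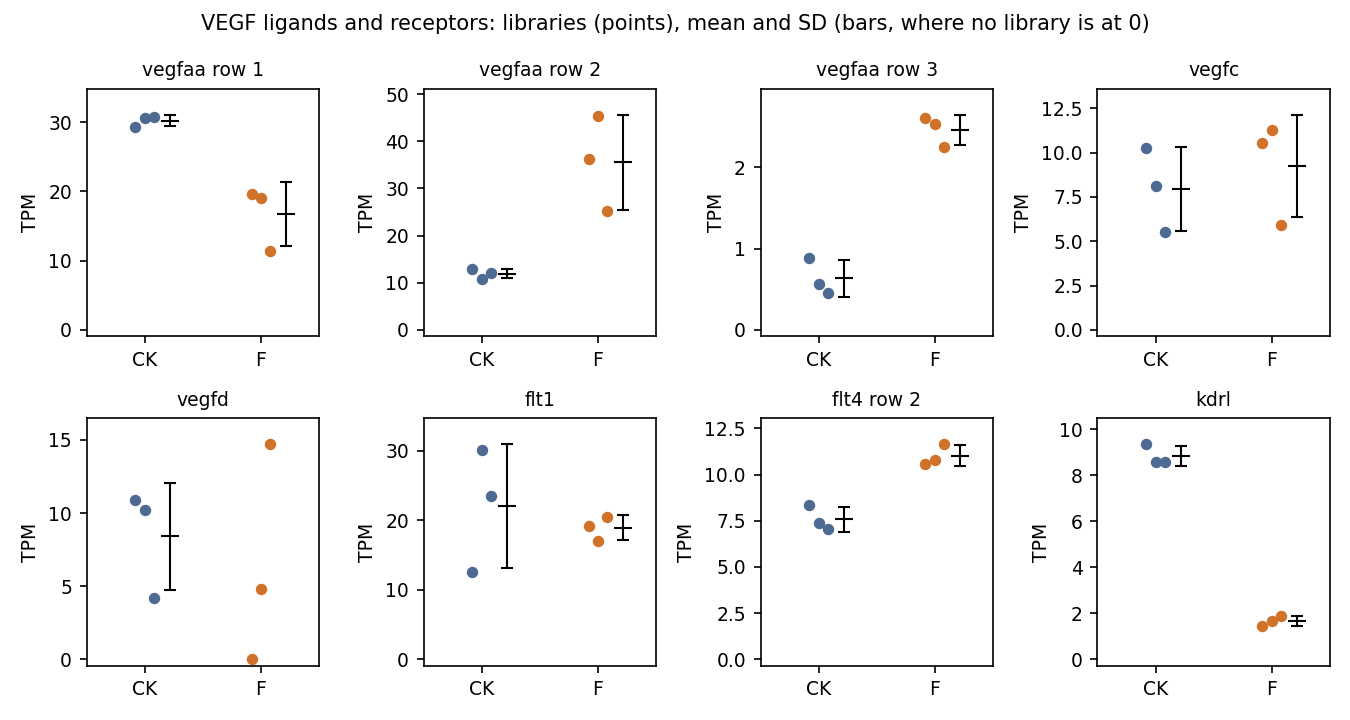
TPM of the 8 tested VEGF ligand and receptor rows, with 1 point per library, and the mean and SD of a group as bars where no library is listed at 0. Vegfaa row 1 and kdrl are lower in F and vegfaa row 2 is higher, while the points of vegfc, vegfd and flt1 overlap.

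Across all rows, the order of the levels was rearranged. In CK the highest means were those of angptl1b (33.7 ± 1.17 TPM, SD, n = 3), vegfaa row 1 (30.2 ± 0.838), angpt2b (23.8 ± 1.27) and flt1 (22.1 ± 8.90). Angptl1b lay above vegfaa row 1 and vegfaa row 1 above angpt2b without overlap, whereas flt1 overlapped with its neighbours. In F the order began with angptl7 (66.7 ± 5.65 TPM), vegfaa row 2 (35.5 ± 10.1), flt1 (18.9 ± 1.79), vegfaa row 1 (16.7 ± 4.61) and angptl2b (16.2 ± 5.17). Angptl7 and vegfaa row 2 stood apart from each other and from the rest, and the spreads of flt1, vegfaa row 1 and angptl2b overlapped.

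**Figure D4:**
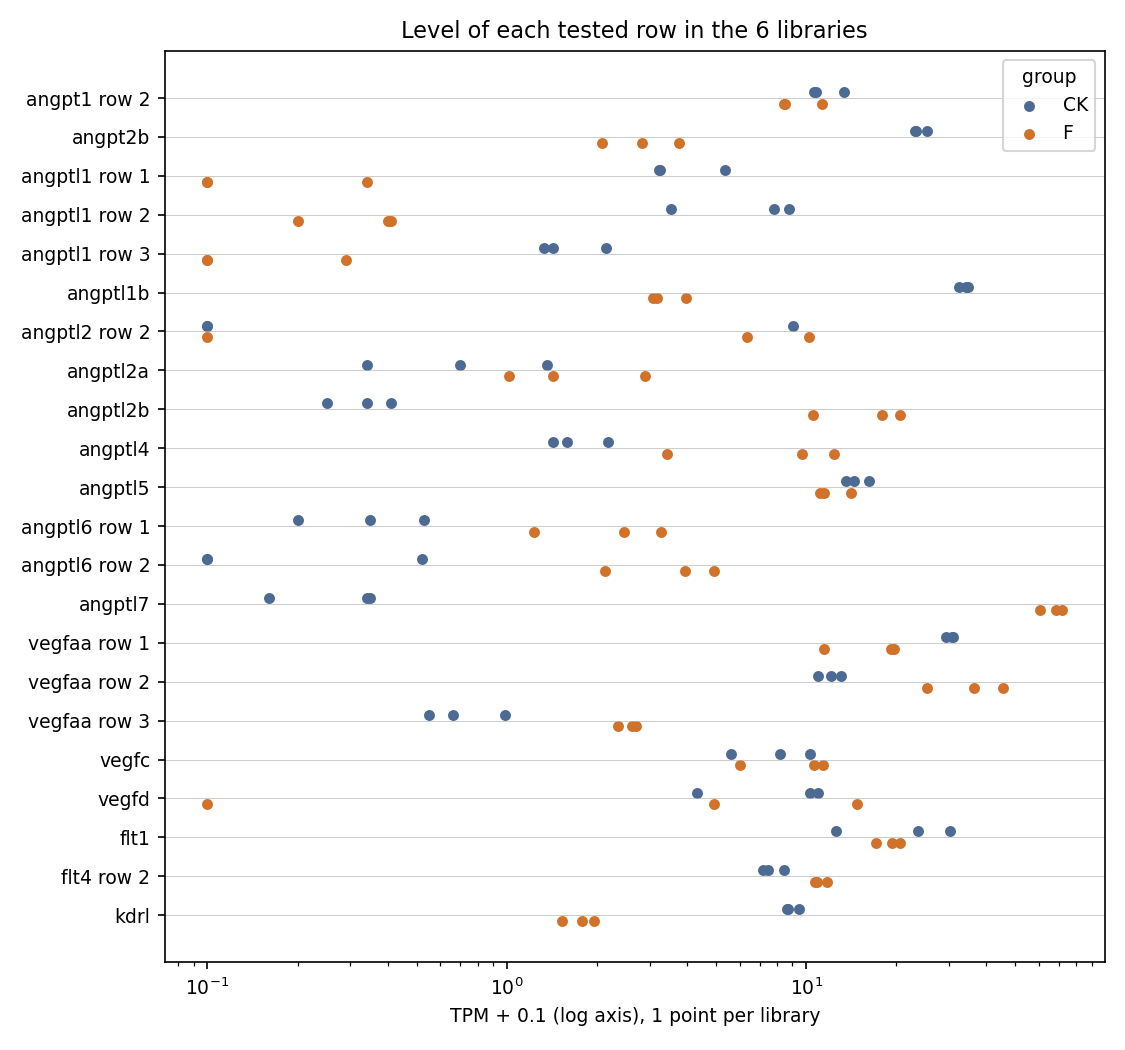
TPM of the 22 tested rows in the 6 libraries, on a log axis after adding 0.1, with CK points above F points for each row. Angptl7 spans 0.06 to 0.25 TPM in CK and 60.5 to 71.5 TPM in F, and rows such as angptl5 and vegfc overlap.

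The rule did not use protein domains. A fibrinogen-like domain (Fibrinogen_C) was annotated in 13 of the 27 rows. Of these, 12 were tested, with 3 higher and 3 lower. Outside the family 7 rows of the table carried it, and of the 6 tested 2 were higher, 1 lower and 3 neither. Over all rows tested, 6.15% were higher and 6.07% lower. This comparison was chosen after the values were seen.

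Partner genes were read from lists, each symbol (and its a and b paralogs) by its most abundant row, and their levels are the mean ± SD of 3 libraries. The counts of each list, of partners or of markers, are to be read beside the shares over all rows tested, 6.15% higher and 6.07% lower. Those shares include every row of a symbol, so the comparison is not like for like. One list held co-receptors of VEGF, placenta growth factor (pgf), and the related platelet-derived growth factors (PDGFs) with their receptors. Its rows went down where they passed: of 9 rows tested, 5 were lower and 4 neither. The median log2 change of the list was −0.65 against −0.01 over all rows. Pgf, which did not pass, had 1.02 ± 0.627 TPM in CK and 2.89 ± 0.745 in F, without overlap (limma log2 change 0.97, adjusted p = 0.123). The PDGF receptors pdgfra (log2 change 0.14) and pdgfrb (−0.17) overlapped and did not pass. Nrp1a, a neuropilin that binds VEGF-A, went from 54.6 ± 1.58 TPM in CK to 22.2 ± 3.41 in F (limma log2 change −1.27, adjusted p = 0.00229). Nrp2b, of the neuropilin that binds VEGF-C, went from 51.2 ± 4.71 TPM in CK to 23.4 ± 2.94 in F (log2 change −1.10), and the ligand pdgfa from 5.17 ± 1.26 to 0.563 ± 0.200 TPM (log2 change −1.97). The other neuropilin-2 paralog, nrp2a, had 18.2 ± 3.42 and 20.6 ± 3.22 TPM (limma log2 change 0.18, adjusted p = 0.601). Pdgfd (log2 change −1.05) and plxnd1 (log2 change −0.65), a receptor of class 3 semaphorins and the most abundant row of the list over both groups, also fell. With 1 library left out, 3 to 5 rows of the list were lower: pdgfd lost its call in every such fit except that without F replicate 2 (adjusted p = 0.0774 to 0.138), and plxnd1 without CK replicate 1 (0.0593) or 2 (0.0681).

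Modulators of VEGF, most of them secreted but with the receptor Notch1 among them, went both ways. Of 15 rows tested, 3 were higher, 4 lower and 8 neither, against 6.15% higher and 6.07% lower of all rows tested. Adamts1, a protease known to bind and restrain VEGF-A, rose from 0.850 ± 0.297 TPM in CK to 12 ± 1.40 in F (limma log2 change 2.82, adjusted p = 9.60e-04). Sema3e, which repels vessels through plexin D1, rose from 24.9 ± 1.61 TPM in CK to 54.6 ± 6.52 in F (log2 change 1.09), and sema3fa, a neuropilin ligand, had a log2 change of 1.08. Ccbe1, needed for the maturation of VEGF-C, fell from 236.3 ± 40.4 TPM in CK to 129.4 ± 13.7 in F (limma log2 change −0.85, adjusted p = 0.016). Notch1a, the receptor that restrains sprouting, fell from 6.36 ± 0.989 TPM in CK to 0.353 ± 0.122 in F (log2 change −2.44). Of the rows matched to CCN2, these fell: ccn2a (log2 change −2.49) and a row that NR names WNT1-inducible-signaling pathway protein 2 (log2 change −1.94). The third, ccn2b, had 39.6 ± 1.97 TPM in CK and 66.1 ± 18 in F without overlap and did not pass (log2 change 0.69, adjusted p = 0.0648). The most abundant row, ccn1, had a log2 change of −0.51 (adjusted p = 0.377). With 1 library left out, 2 to 3 rows were higher and 2 to 4 lower. Sema3fa was lost except without F replicate 3 (adjusted p = 0.0572 to 0.105), ccn2a except without F replicate 2 or 3 (0.119 to 0.134), and ccbe1 except without CK replicate 1 or F replicate 2 (0.0501 to 0.0685).

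Of 17 rows of the oxygen-sensing system that controls VEGF and of genes responding to low oxygen, 5 were higher, 5 lower and 7 neither. Over all rows tested the shares were 6.15% higher and 6.07% lower. Ca9, a carbonic anhydrase induced by low oxygen, rose from 0.393 ± 0.235 TPM in CK to 9.36 ± 2.67 in F (limma log2 change 2.87, adjusted p = 0.00233). Ldha, the most abundant row and the enzyme that makes lactate, rose from 241.3 ± 7.54 TPM in CK to 474.1 ± 76.1 in F (log2 change 0.96), as did the oxygen sensors egln3 (1.3) and egln2 (0.79, which NR names as another member of the same enzyme family). For hif1a, the factor these sensors act on, 3 rows were matched, to which NR gives different names. The most abundant, named alpha b, rose (0.69). The list took hif1a as 1 symbol, so its count leaves out the others, which fell. These were the row named alpha, like (limma log2 change −1.30, adjusted p = 0.00172) and that named alpha a (−0.51, adjusted p = 0.0405). The 3 rows summed did not pass (limma log2 change 0.19, adjusted p = 0.334). Adm, for the vessel peptide adrenomedullin and itself a hypoxia target, fell from 41.1 ± 2.91 TPM in CK to 10.9 ± 1.42 in F (limma log2 change −1.82, adjusted p = 5.95e-04). Bnip3 (−0.75), arnt2 (−0.75), ndrg1a (−0.47) and p4ha1a (−0.36) also fell. The more abundant paralog p4ha1b had 228.9 ± 16 TPM in CK and 299.5 ± 39.3 in F without overlap. It did not pass (limma log2 change 0.38, adjusted p = 0.0855). With 1 library left out, 2 to 6 rows were higher and 2 to 4 lower, and the hif1a row that rose was lost without CK replicate 1, 2 or 3 (adjusted p = 0.0509, 0.0593 and 0.0564). The other calls lost were arnt2 without CK replicate 2 or 3 (0.063 to 0.0631), ndrg1a without any of the CK libraries in turn (0.0539 to 0.0792), egln2 except without F replicate 2 or 3 (0.059 to 0.0825), egln3 except without CK replicate 1 (0.0565 to 0.0888) and p4ha1a except without CK replicate 3 (0.0801 to 0.138).

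Of 28 rows of the relay inside the cell, 2 were higher, 4 lower and 22 neither, against 6.15% higher and 6.07% lower of all rows tested. The median log2 change was 0.00. The higher rows were akt1 (log2 change 1.68) and the adaptor nck1 (0.79). The lower ones were the kinases fyna (−0.93), ptk2 (−0.83) and prkca (−0.68) and the adaptor grb2a (−0.75). Fynb, the more abundant paralog of fyna, overlapped and did not pass (limma log2 change 0.14, adjusted p = 0.416). With both rows matched to ptk2 summed, its log2 change was −0.47 (adjusted p = 0.0154), and prkca did not pass when its rows were summed (adjusted p = 0.0514). Map2k1, the most abundant, had 812.8 ± 41.8 and 1011.9 ± 102.7 TPM (limma log2 change 0.31, adjusted p = 0.111). With 1 library left out, 2 to 3 rows were higher and 2 to 3 lower: prkca was lost in every such fit (adjusted p = 0.0636 to 0.125) and fyna except without F replicate 3 (0.0508 to 0.0797).

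Of 6 rows of partners of angiopoietin and Tie signaling, 0 were higher and 0 lower by limma at an adjusted p under 0.05, and 2 had an unadjusted p under 0.05. With 1 library left out, 0 to 1 were higher and 0 lower. The most abundant was svep1, a matrix protein of lymphatic development, with 201.2 ± 5.96 and 261.6 ± 29.0 TPM (limma log2 change 0.37, adjusted p = 0.0543).

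Among 7 rows of reported receptors and partners of angiopoietin-like proteins, 3 were lower, 1 higher and 3 neither. Over all rows tested, 6.07% were lower and 6.15% higher. The integrin chains itgb3b (log2 change −3.49, from 55.8 ± 5.59 to 4.19 ± 1.57 TPM) and itgb5 (−0.97) and the cadherin cdh11 (−0.84) fell, and the proteoglycan sdc4 rose (0.62). The paralog itgb3a had 4.34 ± 1.1 TPM in CK and 4.38 ± 0.768 in F and did not pass (limma log2 change 0.02, adjusted p = 0.964). Itgb5 was the most abundant over both groups, at 327.6 ± 0.937 TPM in CK and 167.3 ± 22.5 TPM in F, where sdc4 had 193.7 ± 24.7 TPM. Sdc4 was lost without CK replicate 1 (adjusted p = 0.0543) or 2 (0.0611).

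Of 13 rows of the lipase system on which angptl4 acts, 1 was higher, 2 lower and 10 neither, against 6.15% and 6.07% of all rows tested. Lpl, lipoprotein lipase itself, had 27.1 ± 1.97 and 23.6 ± 5.12 TPM (limma log2 change −0.21, adjusted p = 0.484). Lipg, the endothelial lipase, was the most abundant row, with 682.9 ± 6.85 and 717.4 ± 64.0 TPM (limma log2 change 0.07, adjusted p = 0.699). The lipoprotein receptor vldlr (−1.42) and sel1l (−0.62), a factor of lipase maturation, fell, and plin2 rose (0.64), a row that NR names mannose-6-phosphate receptor binding protein and whose call was lost except without F replicate 3 (adjusted p = 0.0624 to 0.119).

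**Figure D5:**
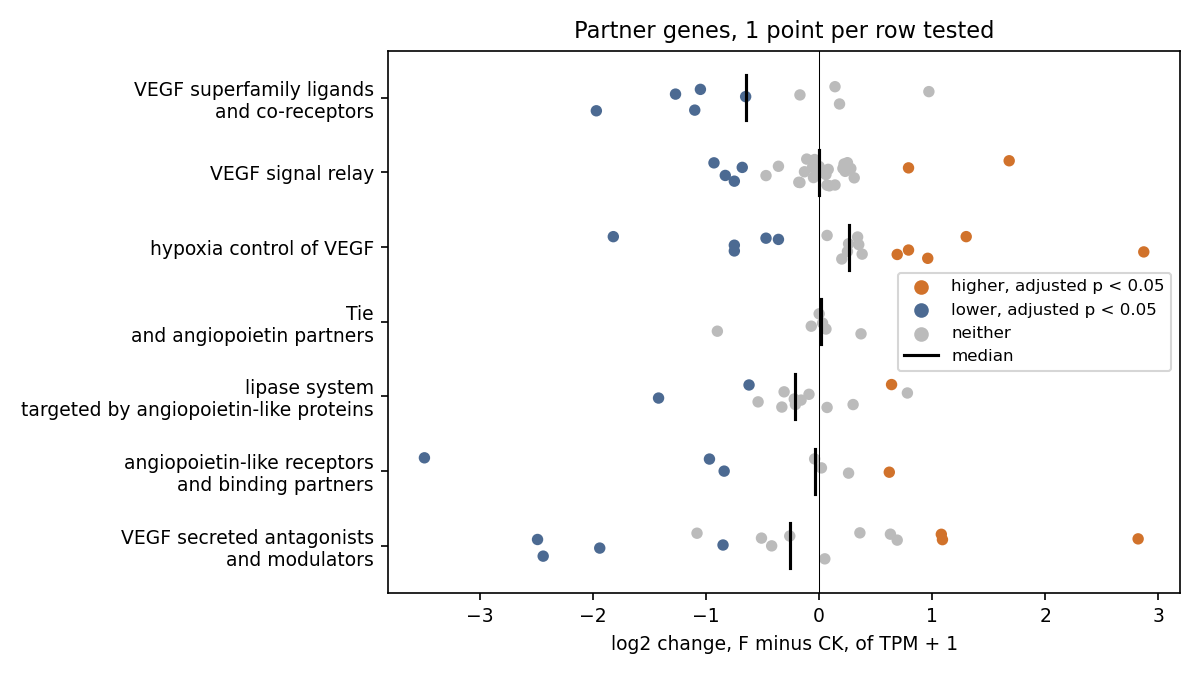
Log2 change (F minus CK, of TPM + 1) of the tested rows of each partner list, with 1 point per row (orange higher, blue lower, grey neither) and the median as a line. The median of the VEGF superfamily list is −0.65, and the points of the signal relay centre on 0.00.

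Some of the genes above, such as kdrl, are known from endothelial cells, so the markers of that and other cell types were read beside them. Of 15 endothelial symbols 6 were matched, and pecam1, cdh5, vwf, tie1 and tek were matched to no row by symbol. Tek is another name of Tie2, and the rows above with the Swiss-Prot gene name tie2 were not found under it. The lack of a match for tie1 and tek may therefore be a matter of names. The identity of the tie2 rows rests on a partial match, as given above. No matched row was at 0 in all libraries. The matched rows summed to 18.4 to 29.4 TPM in CK and 21 to 22.8 TPM in F. Of 4 tested, kdrl alone passed, as lower, and it is the family row given above. The others were neither, with values on the opposite side. Cldn5b (log2 change 1.3, adjusted p = 0.0632) and fli1 (0.97, adjusted p = 0.0558) had F above CK without overlap, and erg (0.36, adjusted p = 0.305) overlapped. Robo4 and egfl7, not tested, were listed at 0 in all but 1 and 2 libraries. Of 7 mural symbols all were matched, summing to 183.8 to 197.5 TPM in CK and 142.9 to 185 TPM in F. Here rgs5a rose from 0.163 ± 0.179 TPM in CK to 68.2 ± 5.68 in F (log2 change 5.90), while mcam (−1.86), notch3 (−0.87) and cspg4 (−0.82) fell. Lymphatic markers summed to 26 to 47 TPM in CK and 30.6 to 36.4 TPM in F. The CK range was wide through stab2, which had 0, 11.9 and 24.8 TPM in CK, was listed at 0 in F and was not tested. Of 3 rows tested, flt4 alone passed, and it is the family row given above. NR names the prox1 row prospero homeobox 3.

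For the labelled cell type, 7 of 10 fibroblast symbols were matched, at 3500.4 to 3813.6 TPM in CK and 2827.9 to 3970.8 TPM in F. Col1a1, col1a2 and thy1 were matched to no row by symbol. In any of the lists, a symbol without a match need not mean that the transcript was absent. Prrx1 had 441.6 ± 19.6 and 445.3 ± 30.1 TPM, and a vim row, which NR names vimentin like, 11.6 ± 5.62 and 10.6 ± 2.75 TPM. Of 7 rows tested, 1 was higher (dcn, log2 change 0.84), 2 lower (lum, −2.40, and a twist1 row, −0.59) and 4 neither. Epithelial markers, of which krt18b and krt8 were the most abundant, summed to 7043.2 to 7276.6 TPM in CK and 5451.5 to 6061.3 TPM in F, and of 5 tested epcam (log2 change −1.40) and krt18 (−0.54) fell. Most of this sum came from the simple keratins krt8, krt18 and krt18b, which were thus abundant in all libraries of a line labelled as fibroblasts. Epcam had 83.8 ± 6.64 TPM in CK and 31.1 ± 1.67 in F, and tp63 had 6.33 ± 0.656 and 6.84 ± 1.26. A cdh1 row, which NR names neural-cadherin, was seen in F replicate 3 alone (5.37 TPM), and cldn1, krt4 and krt5 were matched to no row. Whether the keratins mark epithelial cells in this line was not tested. Osteoblast markers summed to 374.6 to 449 TPM in CK and 367.5 to 431.4 TPM in F, with runx2b lower (log2 change −0.88), and those of leukocytes, pigment cells and nerve cells and glia to at most 22.4 TPM in any library. The part of these cell types in the changes of the vessel genes was not tested.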

How the data were processed

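RNA was measured in 6 libraries, 3 CK and 3 F. Per the study's methods, the authors assembled cleaned reads de novo with Trinity and computed TPM with RSEM, and deposited TPM per assembled gene and library with protein, domain, GO and KEGG names. RSEM 1.3.3 appears in the submitters' processing notes beside Cufflinks 2.2.1, TopHat2 2.1.1 and DESeq2 1.24.0, whose roles are not given there. The group means that the authors deposited match averages over the libraries to within 3.3e-07 TPM and were left aside.

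Group differences were fitted on log2(TPM + 1) using limma (version 3.58.1, R 4.3.3; lmFit and then eBayes, trend on) over rows reaching 1 TPM in 3 or more libraries, with two-sided tests adjusted by Benjamini-Hochberg over all of them. Tables were made in Python 3.11.15 with pandas 2.3.3, and plots with matplotlib 3.10.9. The fit was tested on simulated data. All rows of the family are accounted for, in full where an adjusted p was under 0.05 and a group mean at least 5 TPM, and otherwise by library, range or count. Where NR and KEGG names of an angiopoietin-like row differed, KEGG's number was used. List genes are named when they passed, or as the most abundant row of a partner list. Nrp2a, pgf, pdgfra, pdgfrb, lpl, prrx1, ccn2b, robo4, egfl7, erg, fli1, cldn5b and the lesser hif1a rows were named outside this rule. So were stab2, prox1, vim, krt8, krt18b, tp63, cdh1, sp7, runx2, p4ha1b, fynb and itgb3a. Members and lists were chosen with earlier results of these data known, and no list was tested as a set. The alternatives were other pseudocounts, filters, scalings and variance models, a replicate block, rows summed per name, a fold threshold, and each library left out. No transcript or protein sequences were used here.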

Additional observations from a re-analysis of the deposited data

How the results depend on the processing

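Over all rows, 2310 were higher and 2277 lower. With the replicate block (the replicate number as a term) 941 and 1071 were, with a log2 change beyond 1 asked for 1229 and 1465, and with 1 library left out 931 to 1944 and 1006 to 1888. Of the family, 6 rows were higher and 7 lower. The replicate block called 3 and 5, rows summed per name 3 and 4, the filter at 5 TPM 4 and 4, and fits with 1 library left out 3 to 4 and 5 to 6. Summing leaves 17 names to test in place of 22 rows, and the filter at 5 TPM leaves out low rows such as angptl1 rows 1 to 3. The counts of these settings thus have other totals. Of the other planned settings, none moved a family count by over 1.5 times. Whether the replicate numbers pair the libraries cannot be told from the values. Deviations from the group means correlated at 0.006 to 0.009 for same-numbered libraries and at −0.007 to 0 for the others. These correlations are all close to none, although all 6 libraries correlated best with their own number. The sign turned for flt1 without CK replicate 2 (0.13), for vegfaa row 1 when the vegfaa rows were summed (0.31), for vegfc without CK replicate 3 (−0.03) and for vegfd without F replicate 1 (0.11), and in no other of the 322 recomputed family changes, of which 48 lost their call. With 1 library left out, the log2 change ran from −0.48 to 0.13 for flt1, from −0.03 to 0.45 for vegfc and from −1.87 to 0.11 for vegfd. With 0.1 in place of 1 added to TPM, low rows changed by over 1.5 times more, as in angptl1 rows 1 to 3 (−4.67, −4.28 and −3.49, the last no longer passing), angptl6 row 2 (4.32), vegfaa row 3 (1.85), ca9 (4.33), notch1a (−3.86) and pdgfa (−3.01), and ccn2a (adjusted p = 0.0563) and vegfaa row 1 (0.0505) were lost. Without the filter, angptl1 row 3, flt4 row 2, vegfaa rows 1 and 3, ccn2a, p4ha1a, pdgfd, plin2 and prkca were lost (adjusted p = 0.0564 to 0.0992). Without the variance trend, flt4 row 2, vegfaa row 1, ccn2a, hif1a, ndrg1a, p4ha1a, plin2, plxnd1, prkca, sdc4 and sema3fa were lost (0.051 to 0.167). Other scalings lost flt4 row 2 and p4ha1a (0.0566 to 0.0698). Angptl4 passed with median-of-ratios scaling and after quantile normalization. The cause of these shifts was not tested.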
